A study of Mus musculus with 8 samples.

Results

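The genes described here encode the proteins of the cytosolic ribosome, the particle that translates messenger RNA outside mitochondria. Members were taken by name: gene names that start with Rpl or Rps and a digit, plus Rplp0, Rplp1, Rplp2 and Rpsa, without names marked as pseudogenes and without the S6 kinases and a few other genes whose names only begin the same way. The rule found 86 members among the 24421 genes of the deposited table, 34 of the small and 52 of the large subunit, and it used no measured value. Messenger RNA was sequenced from mouse embryonic stem cells (mESCs), WT of the W9.5 line and Hira-null of the line Clone104, both with HA-tagged histone H3.3. Hira encodes a histone chaperone that places H3.3 in chromatin outside DNA replication, and the Hira-null line is a single clone. The 4 groups were Hira-null and WT cultures at day 15 of hanging drop differentiation towards cardiomyocytes, and Hira-null and WT undifferentiated mESCs at day 0, with 2 libraries in each group from separate biological samples. Members were compared between genotypes at each day and between days in each genotype.

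Hira mRNA read 12.4 and 11.4 FPKM (fragments scaled to gene length and to the depth of the library) in Hira-null mESCs, against 27.3 and 28.5 FPKM in WT mESCs. At day 15 it read 16.7 and 19.8 FPKM in the libraries labelled Hira-null, against 15.8 and 15.5 FPKM in WT. The day 15 label was therefore not matched by a lower Hira level, and these libraries are called by their label. The fragments behind the table numbered 6897009 to 11088583 per library.

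A ribosome holds a single copy of nearly every ribosomal protein, and cells make the proteins of both subunits together with ribosomal RNA. Ribosomal protein mRNAs are short, are among the most abundant mRNAs of growing cells, and mostly begin with a run of pyrimidines, the 5′ terminal oligopyrimidine or TOP motif, through which growth signals control their translation. Most of these genes have many processed pseudogenes in mammalian genomes. A few have expressed paralogs, some of which are mainly known from testis or muscle.

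The start regions of 8 members that the results turn on are shown with their runs of C and T near the start. They are members with large differences, and paralogs beside the genes they resemble. Each sequence runs 5′ to 3′ on the gene's own strand, from 45 bases before to 15 bases after the RefSeq start, with the longest run of C and T between 10 bases before and 15 bases after the start in capitals. They come from RefSeq on GRCm38.p6, a later build than the mm9 build of the expression table.
Rplp2 (chr7:141447606-141447665, plus strand): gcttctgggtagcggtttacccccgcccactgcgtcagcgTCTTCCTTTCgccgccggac
Rpl28 (chr7:4792920-4792979, plus strand): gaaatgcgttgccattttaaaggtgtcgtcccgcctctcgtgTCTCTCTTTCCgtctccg
Rpl39 (chrX:37085208-37085267, minus strand): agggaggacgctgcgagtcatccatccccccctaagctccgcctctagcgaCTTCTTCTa
Rpl39l (chr16:10170183-10170242, plus strand): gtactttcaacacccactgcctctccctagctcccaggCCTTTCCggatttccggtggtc
Rpl10 (chrX:74270771-74270830, plus strand): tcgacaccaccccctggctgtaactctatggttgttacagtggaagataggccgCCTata
Rpl10l (chr12:66284387-66284446, minus strand): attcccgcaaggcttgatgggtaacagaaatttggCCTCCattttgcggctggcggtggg
Rpl22 (chr4:152325681-152325740, plus strand): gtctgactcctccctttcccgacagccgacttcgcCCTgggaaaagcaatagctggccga
Rpl22l1 (chr3:28805463-28805522, plus strand): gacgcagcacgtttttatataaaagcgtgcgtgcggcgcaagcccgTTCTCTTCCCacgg
The run was 10 bases long in Rplp2 and 11 in Rpl28, against 3 at the RefSeq start of Rpl10 and at the shown one of 2 starts of Rpl22. Rpl39l carried a run of 7 bases and Rpl10l a run of 5. Only in Rplp2 and Rpl28 did the marked run cross the RefSeq start. The marked runs of Rpl39l, Rpl10l and Rpl22 ended before the first transcribed base. Those of Rpl39, Rpl10 and Rpl22l1 began after it. A marked run is therefore not in itself a TOP motif.

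Promoter entries were matched by symbol for 65 of the 86 members, 77 entries in all. A run of 6 or more C or T lay between 10 bases before and 15 bases after the start in 48.1% of member entries, against 24.4% of all 32851 promoter entries. The letters CTTTCC were in that window on the transcribed strand in 14.3% of member entries, against 1.04% of all. CCGGAAG, letters of the kind bound by ETS family factors, was on either strand of the 300 bases around the start (250 before, 50 after) in 35.1% of member entries, against 8.86% of all. AAGATGGC, letters of the kind bound by YY1, was there on either strand in 9.09% of member entries, against 2.75% of all. These matches describe the letters, and no binding was measured.

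The members together took a larger share of the RNA in Hira-null mESCs than in WT mESCs. At day 15 the libraries labelled Hira-null gave them a smaller share than WT did. At day 0 they held 14.9% and 15.1% of the summed FPKM in Hira-null mESCs, against 12.1% and 11.7% in WT mESCs. At day 15 they held 7.75% and 7.47% in the libraries labelled Hira-null, against 9.6% and 9.61% in WT. The groups did not overlap at either day, and the order of the genotypes was turned round between the days. With 2 libraries against 2, an exact permutation test cannot give a two-sided p below 0.333. Summed FPKM also moves with a few short abundant RNAs. Without Rpph1 and Rmrp, the RNA parts of RNase P and RNase MRP, the shares were 16.4% and 16.6% in Hira-null mESCs against 13.1% and 12.6% in WT mESCs, and 8.25% and 8.03% in the libraries labelled Hira-null against 10% and 9.99% in WT at day 15. As shares of fragments, which weigh genes by length, the members held 5.38% and 5.39% in Hira-null mESCs, against 4.21% and 4.0% in WT mESCs, and 2.03% and 2.01% in the day 15 libraries labelled Hira-null, against 2.62% and 2.61% in day 15 WT.

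**Figure D1:**
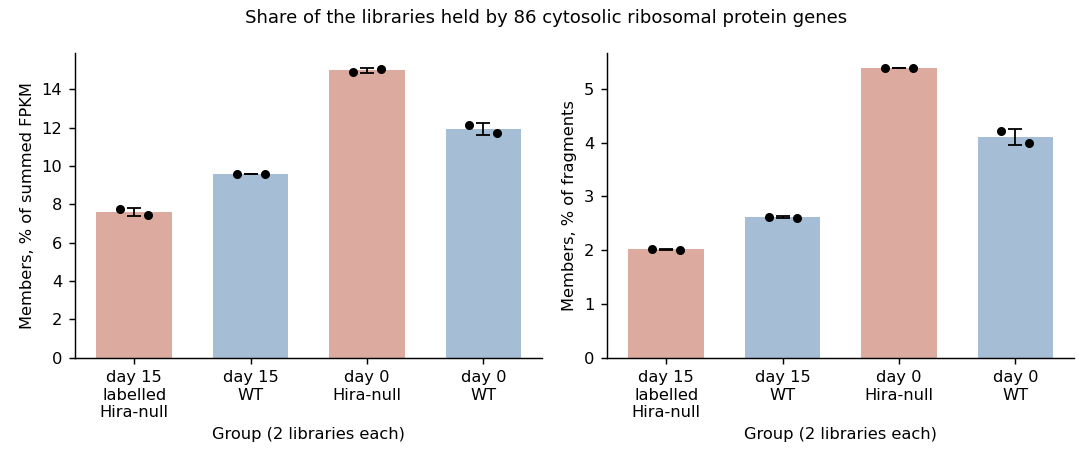
Share of each library held by the 86 members, as % of summed FPKM (left) and % of fragments (right), by group. The bar height is the mean of 2 libraries with its SD, and each point is 1 library. The Hira-null mean is 15% of summed FPKM at day 0 against 11.9% in WT, and at day 15 it is 7.61% in libraries labelled Hira-null against 9.6% in WT.

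Levels of the members spread widely. Mean FPKM over the 8 libraries was highest for Rplp2 (1893 FPKM), which encodes a protein of the stalk that recruits elongation factors, then for Rpl8 (1677 FPKM), a protein near the peptidyl transferase centre, and Rpl32 (1438 FPKM). Lowest were Rps27rt, listed at 0 in all libraries, the muscle paralog Rpl3l (0.518 FPKM) and Rpl26 (0.871 FPKM). Rpl26, Rpl34 (5.07 FPKM), Rpl30 (6.91 FPKM) and Rps27 (7.81 FPKM) encode proteins of every ribosome, and each had a mean below 10 FPKM. The sources used here do not say how reads that fit several places were counted. Of the coding 50-mers that lie within an exon, a median of 8.07% per member occurred nowhere else in the NCBIM37 genome (84 members with a value), and 30 members had none. The mean level of those 30 members ran from 0 to 946 FPKM. The split of reads between such members and their pseudogenes is therefore uncertain.

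Group differences were tested with limma on log2(FPKM + 1). The 14337 genes that reached FPKM 1 in 2 or more libraries entered, and p was adjusted over all of them by Benjamini and Hochberg's method. For genes at low FPKM this scale gives a smaller log2 difference than the FPKM ratio. All members but Rps27rt, 85 in all, were tested. Rpl3l reached FPKM 1 only in the WT mESC libraries, the group where it read highest. Its calls as lower at day 0 and over differentiation in WT therefore follow a selection on its high group.

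At day 0 the ribosomal protein genes were higher in Hira-null mESCs than in WT mESCs by a modest amount, with the middle 50% of members between 0.17 and 0.52 on the log2 scale. Of the 85 members, 56 were higher and 3 lower, and 26 did not pass the test, where 20.8% of all genes tested were higher and 19.4% lower. The median log2 difference of the members was 0.37, against 0.01 for all genes tested, and 72 members lay above 0. Of the members, 2 were higher by 2-fold or more, the paralogs Rpl39l and Rpl10l, where 4.63% of all genes were. The 3 lower members were Rps27a, Rps27l and Rpl3l, and no member passed as lower once either Hira-null day 0 library or WT day 0 replicate 1 was left out, while 5 did when the second day 15 library with the Hira-null label was left out.

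Among small subunit members 24 of 33 were higher and 2 lower (median 0.41), and among large subunit members 32 of 52 were higher and 1 lower (median 0.33). The mRNAs of all 3 proteins of the P-stalk of the large subunit, which recruits the elongation factors, were higher. Rplp2 read 3244 and 3348 FPKM in Hira-null mESCs, against 2246 and 2250 FPKM in WT mESCs, a log2 difference of 0.55 (standard error 0.06, adjusted p = 1.50e-04, limma). Its highest WT library lay well below its lowest Hira-null library. The stalk base Rplp0 differed by 0.44 (adjusted p = 0.00239) and Rplp1 by 0.51 (adjusted p = 0.00158). Rpsa, at the surface of the small subunit, read 963 and 943 FPKM in Hira-null mESCs, against 675 and 649 FPKM in WT mESCs, and differed by 0.53 (adjusted p = 9.30e-04).

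Of the pair of proteins that carry 5S ribosomal RNA into the large subunit, and that can bind Mdm2, Rpl11 was higher at day 0 and Rpl5 did not pass. Rpl11 read 468 and 460 FPKM in Hira-null mESCs, against 352 and 322 FPKM in WT mESCs (log2 difference 0.46, adjusted p = 0.00336). Rpl5 read 108 and 102 FPKM in Hira-null mESCs, against 109 and 116 FPKM in WT mESCs, and did not pass the test (log2 difference −0.10, standard error 0.07). Exons of Rpl5 overlap Snord21 and Fam69a, so its reads cannot all be assigned to it, and no coding 50-mer within an exon of either gene was unique.

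Among single members apart from the paralogs, Rpl39, which lines the exit tunnel of the large subunit, had the largest called day 0 difference. It read 660 and 746 FPKM in Hira-null mESCs, against 432 and 352 FPKM in WT mESCs (log2 difference 0.84, standard error 0.18, adjusted p = 0.00675), and missed the threshold without Hira-null day 0 replicate 2 (0.76, adjusted p = 0.0548). Rps21 differed by 0.72 (standard error 0.13) and Rpl37a by 0.70 (standard error 0.06). Rpl28 read 1460 and 1512 FPKM in Hira-null mESCs, against 987 and 1011 FPKM in WT mESCs (log2 difference 0.57, adjusted p = 1.50e-04). No coding 50-mer within an exon of Rpl28 or Rps27a was unique, and exons of Rps27a overlap 1700034F02Rik. Rps27a, which encodes ubiquitin fused to a small subunit protein, went the other way, with 612 and 573 FPKM in Hira-null mESCs against 771 and 711 FPKM in WT mESCs (log2 difference −0.32, adjusted p = 0.0226). Its groups did not overlap either, but the call rested on both Hira-null libraries and on WT replicate 1.

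At day 15 the same comparison ran the opposite way for most members. In the libraries labelled Hira-null, in which Hira was not lower, 54 of 85 members were lower than in WT and 4 higher, where 18.8% of all genes tested were lower and 18.6% higher. The median log2 difference of the members was −0.31, against 0.01 for all genes tested, and 78 members lay below 0. By 2-fold or more 2 members were higher, again Rpl39l and Rpl10l, where 4.78% of all genes were. The number of lower members was 27 without WT day 15 replicate 1 and 32 without WT day 15 replicate 2, while the median stayed between −0.34 and −0.29 with any single library left out. The 4 higher members were Rpl39l, Rpl10l, Rpl34 and Rpl30, and 2 passed without replicate 1 of the libraries labelled Hira-null or without WT day 15 replicate 1.

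Of the small subunit members 22 of 33 were lower (median −0.27), and of the large subunit members 32 of 52 were lower and 4 higher (median −0.33). The difference between the subunits was not tested. Among the largest falls was that of Rps27a, which read 239 and 206 FPKM in the libraries labelled Hira-null, against 409 and 467 FPKM in WT (log2 difference −0.98, standard error 0.10, adjusted p = 1.56e-04). Each WT library was well above each library labelled Hira-null. Rpl23, a large subunit protein that can also bind Mdm2, read 359 and 292 FPKM against 620 and 607 FPKM in WT (log2 difference −0.92, adjusted p = 2.49e-04).

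Of the stalk genes only Rplp2 passed as lower at day 15. It read 941 and 943 FPKM in the libraries labelled Hira-null, against 1095 and 1081 FPKM in WT (log2 difference −0.21, adjusted p = 0.020), a call lost without either WT day 15 library. Rplp0 (−0.11, standard error 0.08) and Rplp1 (0.05, standard error 0.08) did not pass. Rpsa was −0.23 (adjusted p = 0.0488), close to the threshold, and missed it without any 1 of 7 of the 8 libraries. Rpl5 (−0.19) and Rpl11 (−0.17) did not pass either.

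The higher members Rpl34 and Rpl30 rested on few fragments. Rpl34 read 7.98 and 4.42 FPKM in the libraries labelled Hira-null, against 2.31 and 3.22 FPKM in WT, on 15 to 49 fragments per library over the series (log2 difference 0.90, standard error 0.23, adjusted p = 0.0151). The call was lost without replicate 1 of the libraries labelled Hira-null (0.54, adjusted p = 0.0667) and without WT day 15 replicate 1 (0.73, adjusted p = 0.133). Rpl30 read 7.53 and 7.55 FPKM in the libraries labelled Hira-null, against 4.24 and 4.77 FPKM in WT (log2 difference 0.64, adjusted p = 0.0495). Rps28 replicates lay far apart, at 213 and 62.3 FPKM in the day 15 libraries labelled Hira-null, against 208 and 189 FPKM in WT, and did not pass (log2 difference −0.77, standard error 0.43).

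**Figure D2:**
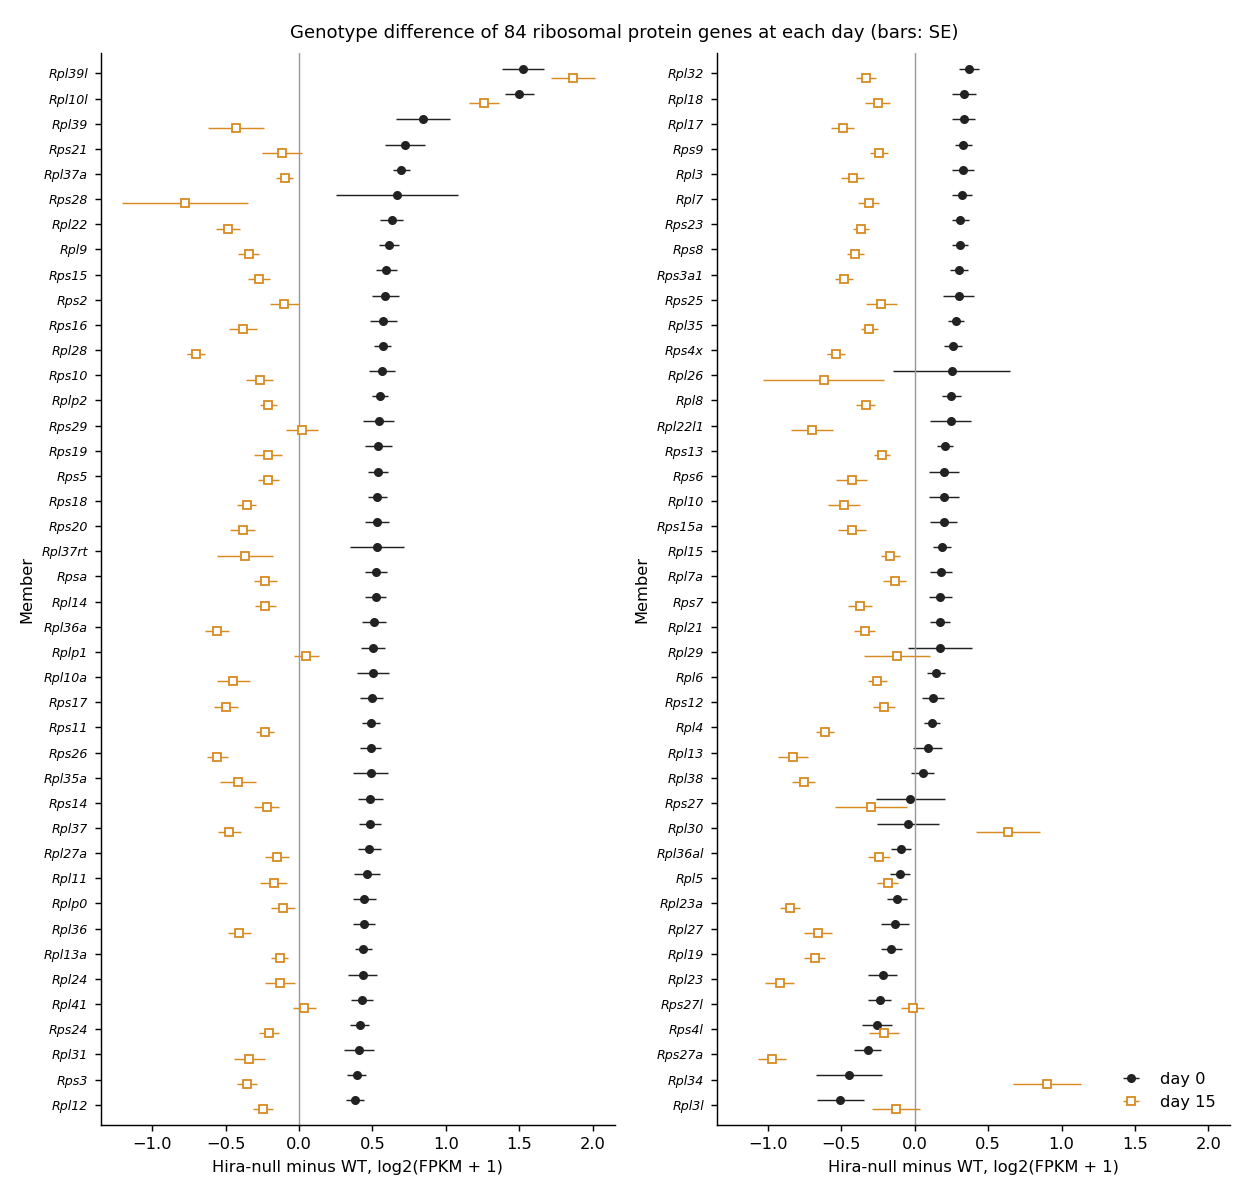
Log2 difference, Hira-null minus WT, of 84 of the 85 tested members at day 0 (filled circles) and day 15 (open squares, libraries labelled Hira-null), sorted by the day 0 value; bars are standard errors. Most members lie right of 0 at day 0 (median 0.37) and left of 0 at day 15 (median −0.31), while Rpl39l and Rpl10l lie far right on both days.

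The difference between the genotype effects at day 15 and at day 0 was tested directly. It passed the test as lower for 72 of 85 members and as higher for 1, Rpl34, where 17.7% of all genes tested were lower and 17.5% higher. The median was −0.70, against 0.02 for all genes tested. Of the 85 members, 37 were both higher at day 0 and lower at day 15, and Rpl39l and Rpl10l were higher at both days. Among the most negative values past the test were −1.27 for Rpl39 (standard error 0.27, adjusted p = 0.00705) and −1.27 for Rpl28 (standard error 0.08, adjusted p = 7.04e-05). Rpl28 stood at 336 and 329 FPKM in the day 15 libraries labelled Hira-null against 527 and 555 FPKM in WT, the reverse of its day 0 order. Rpl22, an RNA-binding large subunit protein, read 214 and 222 FPKM in Hira-null mESCs against 143 and 137 FPKM in WT mESCs, and 89.0 and 75.8 FPKM in the day 15 libraries labelled Hira-null against 115 and 116 FPKM in WT, a difference between the days of −1.12 (adjusted p = 3.40e-04). Of 14 members with at least 50% unique coding 50-mers within exons (Rpl8 and Rpl22 among them), 9 passed as lower (median −0.65). The single higher call was absent without WT day 15 replicate 1 (Rpl34 at 1.17, adjusted p = 0.0585), and 2 members passed as higher without Hira-null day 0 replicate 2.

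Nearly all members were lower after differentiation in both genotypes, and the fall was larger in Hira-null for the 72 members that passed as lower in that test. In Hira-null 83 of 85 members were lower at day 15, in the libraries with that label, than at day 0, where 36.4% of all genes tested were lower and 37.5% higher (median −1.46, against 0.01 for all genes). In WT 79 were lower, where 33.4% of all genes were lower and 36.1% higher (median −0.75, against 0.03 for all genes). At the deposited scale the fall was not particular to the members. In WT 66 of 69 ribosome biogenesis genes were lower and 0 higher (median −1.01). Of 77 mitochondrial ribosomal protein genes 69 were lower and 0 higher there (−0.87), and of 42 initiation factor genes 35 and 5 (−0.88). In Hira-null these lists had 57 lower and 1 higher (−0.68), 61 and 3 (−0.69), and 30 and 6 (−0.74). No member was higher in either genotype by limma, also at an unadjusted p under 0.05, where 0 were higher. Falls of 2-fold or more were seen for 76 members in Hira-null and 13 in WT, where 17.9% and 12.4% of all genes fell that far. The comparison of the days depends on the scaling, since summed FPKM was 348884 ± 5077 in day 15 libraries labelled Hira-null against 502985 ± 3093 in Hira-null mESCs, and 351600 ± 5483 in day 15 WT against 487426 ± 9025 in WT mESCs (SD, n = 2 each). With libraries scaled to equal sums the median of all genes moved to 0.49 in Hira-null and 0.48 in WT, that of the members to −0.94 in Hira-null and −0.30 in WT, and 81 and 54 members were lower. At equal sums in Hira-null, 32 biogenesis genes were lower and 13 higher (−0.17). Mitochondrial ribosomal protein genes then had 31 lower and 11 higher (−0.18), and initiation factor genes 19 and 11 (−0.23). In WT these lists had 56 lower and 1 higher (−0.55), 47 and 3 (−0.44), and 23 and 7 (−0.43). Measured against the median of all genes, members stood between −1.47 and −1.43 in Hira-null under each of the 4 scalings. In WT they stood between −0.79 and −0.78.

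Rplp2 read 941 and 943 FPKM in day 15 libraries labelled Hira-null against 3244 and 3348 FPKM in Hira-null mESCs (log2 difference −1.81, standard error 0.06), and 1095 and 1081 FPKM in day 15 WT against 2246 and 2250 FPKM in WT mESCs (−1.05, standard error 0.06). Among other members Rpl28 (−2.16, adjusted p = 1.76e-08) and Rps28 (−2.14, adjusted p = 0.00148) fell furthest in Hira-null, next to Rpl10l. The place of Rps28 rested on its uneven day 15 libraries, since its value was −1.26 without the second of them and −3.02 without the first. In WT they stood at −0.88 and −0.70, and Rps28 did not pass there. When the second day 15 library with the Hira-null label was left out, Rpl34 passed as higher in Hira-null (0.67, adjusted p = 0.0149), as it did with libraries scaled to equal sums (0.82, adjusted p = 0.0209), against 0.31 and no call with all libraries at the deposited scale. In WT it was lower at day 15 (−1.04, adjusted p = 0.00300). Rpl22 was −0.28 in WT at the deposited scale (adjusted p = 0.0125) and 0.19 with no call at equal sums.

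**Figure D3:**
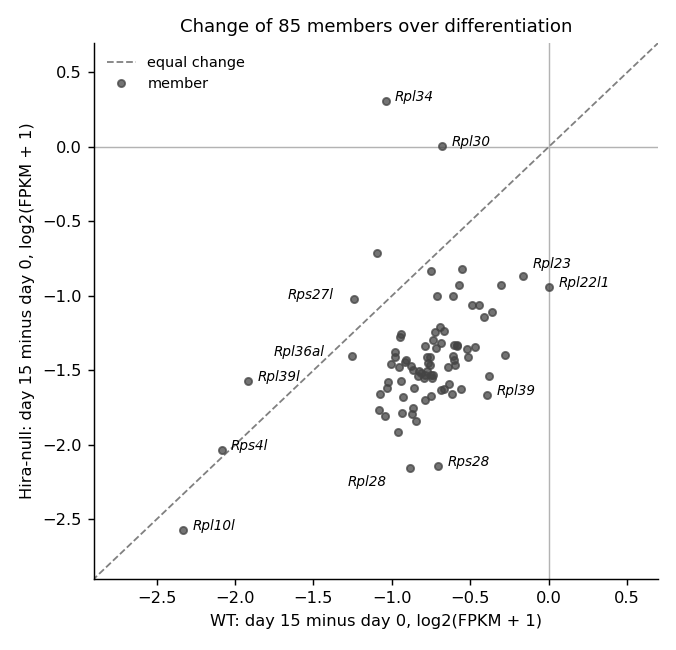
Log2 difference, day 15 minus day 0, of the 85 tested members in Hira-null (vertical; day 15 libraries by label) and WT (horizontal), with a dashed line of equal change. Most points lie below the line (medians −1.46 in Hira-null and −0.75 in WT), and Rpl10l, Rps4l, Rpl36al and Rpl39l lie near it or above it.

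Of the 7 paralogs, Rpl10l and Rpl39l were higher in Hira-null at both days. Rpl10l lies on chromosome 12 (67384368 to 67385388 of NCBIM37, minus strand) in a single exon, and is a copy of X-linked Rpl10 that is mainly known from testis. It read 94.2 and 94.0 FPKM in Hira-null mESCs, against 32.7 and 32.5 FPKM in WT mESCs (log2 difference 1.5, standard error 0.10, adjusted p = 2.48e-05). At day 15 it read 14.3 and 15.8 FPKM in the libraries labelled Hira-null, against 6.23 and 5.17 FPKM in WT (1.26, standard error 0.10, adjusted p = 7.35e-05). The difference between the days was −0.24 and did not pass (standard error 0.14). Of its coding 50-mers 87.6% were unique.

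Rpl39l, on chromosome 16 (10170319 to 10175004, plus strand, 3 exon blocks), is likewise an autosomal relative of an X-linked gene, Rpl39, and is also known from testis. It read 51.9 and 42.8 FPKM in Hira-null mESCs, against 15.5 and 15.9 FPKM in WT mESCs (log2 difference 1.53, standard error 0.14, adjusted p = 1.13e-04). At day 15 it read 13.2 and 17.4 FPKM in the libraries labelled Hira-null, against 3.16 and 3.71 FPKM in WT (1.87, standard error 0.15, adjusted p = 7.10e-05). All of its coding 50-mers within exons were unique, and the groups stood far apart at both days. Its day 15 values rested on few fragments, 24 and 35 in WT and 95 and 133 in the libraries labelled Hira-null. Both paralogs fell over differentiation in each genotype, Rpl10l by 2.57 in Hira-null and 2.33 in WT, and Rpl39l by 1.57 in Hira-null and 1.91 in WT, on the log2 scale.

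The X-linked genes they resemble did not show a difference of that size. Of the coding 50-mers within an exon, none was unique for Rpl10 and 3.23% were for Rpl39, and exons of Rpl10 overlap Snora70. Reads of these X-linked genes can therefore not all be assigned to them. Rpl10, which joins the large subunit late in its assembly, read 642 and 622 FPKM in Hira-null mESCs, against 590 and 514 FPKM in WT mESCs, and did not pass (log2 difference 0.20, standard error 0.10). At day 15 it was lower in the libraries labelled Hira-null, at 259 and 206 FPKM against 326 and 321 FPKM in WT (−0.48, adjusted p = 0.00827), a call lost without either WT day 15 library. Rpl39 at day 15 read 278 and 175 FPKM in the libraries labelled Hira-null, against 311 and 285 FPKM in WT, and did not pass (−0.43, standard error 0.19).

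Rps4l on chromosome 6 (148303178 to 148304120, plus strand, 1 exon) is named Rps4y2 in the annotation. On the log2(FPKM + 1) scale, which shrinks falls at low FPKM, it had the largest fall over differentiation after Rpl10l among the paralogs. It read 86.8 and 108 FPKM in day 15 libraries labelled Hira-null against 405 and 397 FPKM in Hira-null mESCs (−2.04, adjusted p = 3.18e-07), and 110 and 114 FPKM in day 15 WT against 512 and 450 FPKM in WT mESCs (−2.09, adjusted p = 4.51e-07). It did not differ past the test between genotypes at either day (−0.26, standard error 0.10, at day 0). X-linked Rps4x read 1029 and 1067 FPKM in Hira-null mESCs against 879 and 870 FPKM in WT mESCs (0.26, adjusted p = 0.00734, lost without Hira-null day 0 replicate 2), and 372 and 350 FPKM in the day 15 libraries labelled Hira-null against 517 and 532 FPKM in WT (−0.54, adjusted p = 2.78e-04).

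Rpl22l1, the paralog of Rpl22 on chromosome 3 (28704358 to 28706274, plus strand), read 135 and 105 FPKM in the day 15 libraries labelled Hira-null, against 207 and 181 FPKM in WT (log2 difference −0.70, standard error 0.14, adjusted p = 0.00533). The call was lost without WT day 15 replicate 1 (−0.60, adjusted p = 0.0693). At day 0 it read 210 and 250 FPKM in Hira-null mESCs against 210 and 178 FPKM in WT mESCs, with no call. Over differentiation it fell in Hira-null (−0.94, adjusted p = 2.57e-04) and did not pass in WT (0.00, standard error 0.14), where it was higher with libraries scaled to equal sums (0.47, adjusted p = 0.0162). Rpl23 showed the same in WT, at −0.16 with no call and at 0.31 with equal sums (adjusted p = 0.0260).

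Rps27l, known as a p53 target, read 392 and 382 FPKM in Hira-null mESCs against 478 and 436 FPKM in WT mESCs (−0.24, adjusted p = 0.0365), a call lost without either Hira-null day 0 library and without WT day 0 replicate 1. At day 15 it was at −0.02. Rpl36al (−0.09 at day 0 with no call, −0.24 at day 15 with adjusted p = 0.0283) lost its day 15 call without any single day 15 library, while the X-linked Rpl36a was 0.51 at day 0 (adjusted p = 0.00134) and −0.56 at day 15 (adjusted p = 0.00118). Rpl3l, known from heart and skeletal muscle, read 0.639 and 0.642 FPKM in Hira-null mESCs against 1.19 and 1.48 FPKM in WT mESCs on at most 20 fragments, was listed at 0 in both day 15 libraries labelled Hira-null, and read 0.133 and 0.0535 FPKM in day 15 WT. Its day 0 call (−0.51, adjusted p = 0.0321) was lost with a pseudocount of 0.1, without either Hira-null day 0 library and without the first day 15 library with the Hira-null label. Rpl3, its widely expressed relative at the peptidyl transferase centre, was 0.33 at day 0 (adjusted p = 0.00967, lost without either Hira-null day 0 library) and −0.42 at day 15 (adjusted p = 0.00379). Rps27 did not pass in either genotype comparison, at −0.03 and −0.30.

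**Figure D4:**
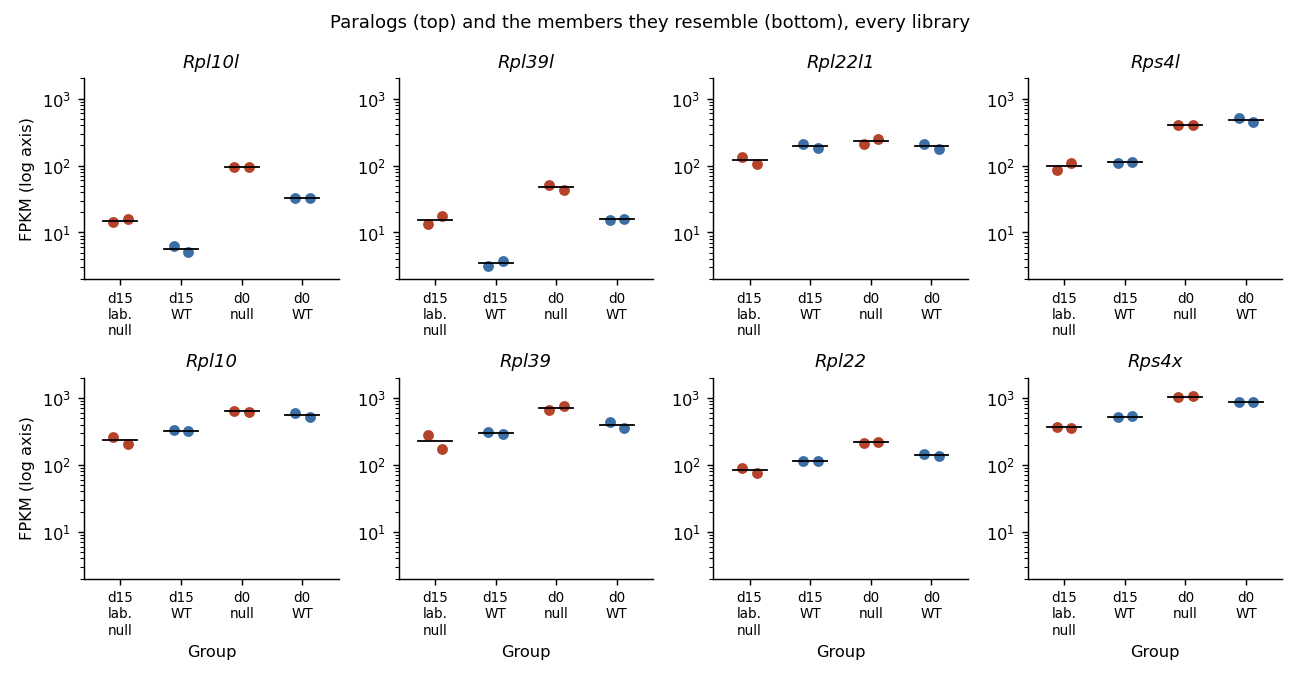
FPKM on a log axis in every library for 4 paralogs (top) and the members they resemble (bottom), by group; points are libraries, lines are means, d15 and d0 are days, and null at day 15 is by label (lab.). Rpl10l and Rpl39l are higher in Hira-null at both days, for example 94.2 and 94.0 FPKM against 32.7 and 32.5 FPKM for Rpl10l at day 0, while Rpl10 and Rpl39 sit closer together.

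A few ribosomal proteins have names that the rule does not take. Fau, which encodes a small subunit protein fused to a ubiquitin-like one, was 0.45 at day 0 (398 and 416 FPKM in Hira-null mESCs against 311 and 286 FPKM in WT mESCs, adjusted p = 0.00793) and lost the call without Hira-null day 0 replicate 2. Gnb2l1, the gene of the small subunit scaffold protein Rack1, was −0.10 at day 0 with no call. At day 15 Gnb2l1 read 632 and 657 FPKM in the libraries labelled Hira-null, against 1349 and 1243 FPKM in WT (−1.01, adjusted p = 3.52e-05), while Fau was −0.12 with no call.

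Of 69 ribosome biogenesis genes, the nucleolar factors that process ribosomal RNA and assemble subunits, 50 were lower in Hira-null mESCs and 3 higher (median −0.40), where 19.4% of all genes tested were lower and 20.8% higher. Ftsj3, a ribosomal RNA processing factor, read 64.8 and 65.6 FPKM in Hira-null mESCs, against 163 and 150 FPKM in WT mESCs (−1.25, adjusted p = 1.40e-05). The helicase gene Ddx52 read 12.4 and 11.5 FPKM against 30.5 and 27.7 FPKM in WT mESCs (−1.21, adjusted p = 9.43e-05). The counts under the other scalings were 48 to 54 lower and 2 to 3 higher. At day 15, 20 were lower and 3 higher in the libraries labelled Hira-null (median −0.12), where 18.8% of all genes were lower and 18.6% higher, with Npm1, the gene of nucleophosmin, at 498 and 453 FPKM against 776 and 876 FPKM in WT (−0.79, adjusted p = 1.59e-04) and Ddx47 at −0.72. In the test of the difference between the days 28 of these genes passed as higher and 3 as lower (median 0.32), with Heatr1 at 0.88 and Utp20 at 0.84, where 17.5% of all genes were higher and 17.7% lower.

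Mitochondrial ribosomal protein genes, whose proteins serve translation inside the organelle, were more often lower than higher at day 0. Of 77 tested, 3 were higher and 23 lower in Hira-null mESCs (median −0.21), where 20.8% of all genes were higher and 19.4% lower, with Mrpl35 at −1.25 and Mrpl45 at −1.04. At day 15, 10 were higher and 17 lower in the libraries labelled Hira-null (median −0.14), near the 18.6% and 18.8% of all genes, with Mrpl48 at 0.70 and Mrps6 at 0.69. Of 15 genes of RNA polymerase I, which transcribes ribosomal RNA, and its factors, 7 were lower at day 0 (median −0.38). Polr1a, the largest subunit, was −0.95 at day 0 (23.0 and 24 FPKM in Hira-null mESCs against 46.9 and 45.9 FPKM in WT mESCs), and Polr1b was −0.87. Translation initiation factors were lower more often than higher at day 0, 19 against 6 of 42 (median −0.22), with the RNA helicase genes Eif4a1 at −0.71 and Eif4a2 at 0.70. Among 11 elongation and release factors 3 were lower and 2 higher, near the shares over all genes of 19.4% and 20.8% that the counts of these lists are to be read against, and the release factor gene Etf1 stood at −0.91. Eef2, the translocase, stood at 2327 and 2311 FPKM in Hira-null mESCs against 1467 and 1399 FPKM in WT mESCs (0.69, adjusted p = 1.77e-04), and at 807 and 906 FPKM in the day 15 libraries labelled Hira-null against 1209 and 1126 FPKM in WT.

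**Figure D5:**
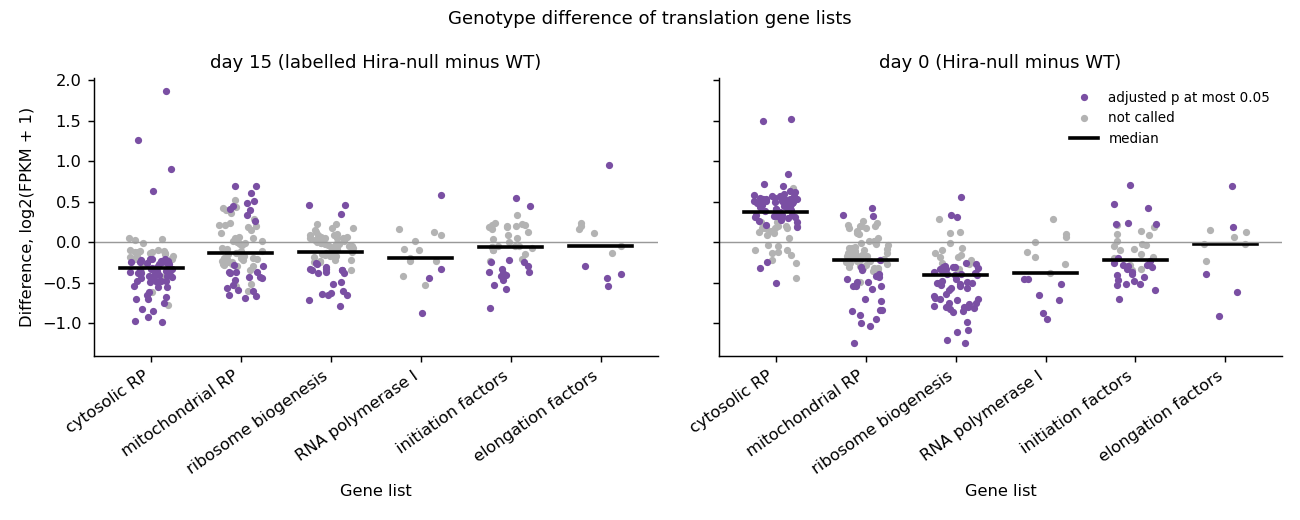
Log2 difference, Hira-null minus WT, of each tested gene in 6 lists at day 15 (left, by label) and day 0 (right); purple points pass at adjusted p 0.05, grey points do not, and black lines are medians. At day 0 the cytosolic ribosomal proteins (RP) have a median of 0.37 and the ribosome biogenesis genes −0.40.

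Regulators of ribosome synthesis were read from a list of 19 genes, of which 5 were higher and 7 lower at day 0, and 5 higher and 3 lower at day 15. Over all genes 20.8% were higher and 19.4% lower at day 0, and 18.6% higher and 18.8% lower at day 15, so the day 15 counts are near the background. Myc, a transcription factor known to drive ribosome synthesis, read 3.82 and 3.65 FPKM in Hira-null mESCs, against 23 and 20.8 FPKM in WT mESCs (log2 difference −2.27, standard error 0.14, adjusted p = 1.73e-05). At day 15 the Myc groups overlapped, at 14.5 and 19.6 FPKM in the libraries labelled Hira-null and 17 and 16.4 FPKM in WT. Mycn read 39.7 and 37.9 FPKM in Hira-null mESCs, against 95.6 and 97.7 FPKM in WT mESCs (−1.29, adjusted p = 7.99e-05). Among these regulators the largest day 15 differences past the test were in Akt1s1 (0.90) and Mxi1 (0.77).

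Length, overlap and cell make-up were read beside these results. Genes other than members whose FPKM step implies at most 1000 bases, 1214 in all, had a median of 0.06 at day 0 and −0.08 at day 15 between genotypes, −0.63 over differentiation in Hira-null and −0.39 in WT. The members, with a median implied length of 700 bases, stood at 0.37, −0.31, −1.46 and −0.75 in the same order. Exons of 26 members overlap another gene. Of the 58 tested members without annotated overlap, 39 were higher and 2 lower at day 0, and 3 higher and 38 lower at day 15. For 14 members at least 50% of the coding 50-mers that lie within an exon were unique. Of these, 10 were higher and 2 lower at day 0, and 2 higher and 7 lower at day 15. The 2 lower at day 0 were the paralogs Rps27l and Rpl3l, and Rpl3l entered the test only through its high WT mESC libraries. The 2 higher at day 15 were the paralogs Rpl10l and Rpl39l, which were also higher at day 0. Over all genes tested 20.8% were higher and 19.4% lower at day 0, and 18.6% higher and 18.8% lower at day 15.

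The mESC marker sum, over 20 pluripotency genes, was 6116 and 6111 FPKM in Hira-null mESCs against 4518 and 4337 FPKM in WT mESCs, 9 of the 20 genes higher and 3 lower. At day 15 it was 924 and 911 FPKM in the libraries labelled Hira-null against 752 and 710 FPKM in WT, with 8 of the 20 genes higher and 7 lower. The make-up of the day 15 cultures also differed by label, as seen in the summed FPKM of marker lists. All genes tested gave 20.8% higher and 19.4% lower at day 0, and 18.6% higher and 18.8% lower at day 15. The cardiomyocyte sum was lower in the libraries labelled Hira-null (233 and 232 FPKM against 326 and 312 FPKM in WT). Only 5 of its 18 genes were lower and 2 higher (median −0.20), not far from those shares. Most genes were lower for endothelial markers (25.8 and 29.6 against 66.6 and 66.5 FPKM, 8 of 10 lower) and blood markers (6.50 and 8.44 against 87.2 and 81.4 FPKM, 7 of 8 tested lower). In the libraries labelled Hira-null this also held for visceral endoderm markers (140 and 158 against 330 and 315 FPKM, 10 of 11 tested lower) and mesenchymal markers (1712 and 2077 against 2977 and 2690 FPKM, 8 of 10 lower and 1 higher). The embryonic globin genes Hbb-y, Hbb-bh1 and Hba-x and the visceral endoderm gene Apoa2 had a listed value of 0 in each of these day 15 libraries. The adult globin genes Hba-a1 and Hbb-b1 had a listed value of 0 in all 8 libraries. A gene at 0 in the day 15 libraries labelled Hira-null could enter the test only through other libraries. The counts of lower blood and visceral endoderm genes are therefore partly set by the filter. Neural markers were higher in the day 15 libraries labelled Hira-null (580 and 558 against 214 and 211 FPKM in WT, 10 of 12 higher). At day 0 the visceral endoderm sum was 455 and 459 FPKM in Hira-null mESCs against 133 and 129 FPKM in WT mESCs, with 4 of 11 tested genes higher and 1 lower (median 0.24). The part of culture make-up in the day 15 ribosomal protein values was not tested, and in such bulk samples fewer cells with high ribosomal protein expression and less ribosomal protein mRNA per cell cannot be told apart.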

How the data were processed

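Reads of stranded, paired-end mRNA libraries were aligned by the authors to mm9 with Bowtie 0.12.2, per the submitters' processing notes, and the authors deposited FPKM of 24421 genes in 8 libraries. The treatment of multiply mapping reads and the use of strand are not given in the sources used here. The deposited tables of the authors' own comparisons (DESeq2 1.6.3), which hold log2 fold changes and p-values, were not used. A step was sought for each gene and library such that all positive FPKM values were near whole multiples of it, which gave the fragments (100% within 0.1 fragment). Since the step was chosen this way, that percentage does not check the fragments. They can be too few where the counts of a gene share a divisor. With 6897009 to 11088583 per library (median 8764772), precision covers counting error only. As FPKM are not counts, log2(FPKM + 1) was fitted with limma 3.58.1 (R 4.3.3): genes that reached FPKM 1 in 2 or more libraries entered, with 4 group means, a weight per day, a trended prior and a threshold of 0.05 on Benjamini-Hochberg values, on 4 residual and 4.70 prior degrees of freedom. The fit was tested on simulated data. By name, 19 rows were dropped (7 pseudogenes, 12 kinases and others). Named are the stalk, Rpsa and 5S-binding members, paralogs and their partners, the 3 members with the largest called difference each way in each comparison, the 3 highest and lowest by level, Fau and Gnb2l1, and the 2 largest calls of other lists. Some items the rule takes are not reported here. Rps21, Rpl37a and Rpl30 were chosen after their values were seen. Members and lists were chosen with earlier results of these data known. The coding 50-mers were matched to NCBIM37. Other scalings, pseudocounts, filters, weights, a replicate block and leaving out each library were tried. A fit of each day alone was added after seeing the data.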

Additional observations from a re-analysis of the deposited data

Results flagged for a closer look

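The genotype difference at day 15 and that at day 0 differed by a direct test (limma, adjusted p at most 0.05) for 1 member, which passed as higher, and for 72 members, which passed as lower. At day 15 the label Hira-null was not matched by lower Hira. On the log2 scale, day 15 minus day 0, the values were as follows. The stalk and surface members stood at −0.55 (Rplp0), −0.46 (Rplp1), −0.76 (Rplp2) and −0.76 (Rpsa), and Rpl11 at −0.64. Among paralogs and partners the values were −0.94 for Rpl22l1, −0.75 for Rpl3, −0.68 for Rpl10, −1.12 for Rpl22, −1.07 for Rpl36a, −1.27 for Rpl39 and −0.80 for Rps4x. Rps27a stood at −0.65, Rpl23 at −0.70 and Rpl28 at −1.27. The abundant Rpl8 and Rpl32 stood at −0.59 and −0.70. Rpl34, the member that passed as higher, stood at 1.35. Outside the name rule the values were −0.56 for Fau and −0.91 for Gnb2l1. The Rplp1 call was lost without either Hira-null day 0 library or without WT day 15 replicate 1, that of Fau without Hira-null day 0 replicate 2 or WT day 15 replicate 1, and that of Rpl34 without WT day 15 replicate 1. Groups of 2 libraries do not allow a search for outlying samples.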

How the results depend on the processing

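Median-ratio scaling, a pseudocount of 0.1, no filter, a filter at FPKM 5 and equal weights kept each count of the 5 comparisons within 1.5 times and each median within the spread of replicates. Scaling to equal sums gave 5 members lower at day 0, 2 higher in WT and 1 higher in Hira-null over differentiation (medians −0.30 and −0.94). Scaling to genes other than members gave 1, 2 and 1 (medians −0.34 and −1.06). These scalings turned Rpl22 in WT to 0.19 and 0.15, neither past the test. Fitting each day alone, added after seeing the data, gave 5 lower at day 0. With each library left out in turn, members lower at day 0 ranged from 0 to 5, those higher at day 15 from 2 to 4 and lower from 27 to 52, those higher over differentiation in Hira-null from 0 to 1, and those whose genotype difference was higher at day 15 than at day 0 from 0 to 2. Between groups, deviations of libraries with the same replicate number correlated little (−0.10 to 0.05). With 2 libraries in each group such values cannot show whether replicate numbers pair the samples. The paper describes the 2 replicates of its day 15 heatmap as coming from distinct experiments, so a pairing is possible. A replicate block gave 56 members higher at day 0 and 47 lower at day 15, and ended the day 15 calls of Rpsa and Rpl36al alone among named members. Without the 7 paralogs the members' share was 14.6% and 14.8% in Hira-null mESCs against 11.8% and 11.4% in WT mESCs, and 7.59% and 7.32% in day 15 libraries labelled Hira-null against 9.42% and 9.43% in WT. Depth limits Rpl26, Rpl3l, Rpl34, Rpl30 and Rps27, with at most 56 fragments in any library.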
